A study of Mus musculus with 38 samples.

Results

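The libraries described here are 5 of the 38 in the series and hold RNA of 4T1 cells, a line of mouse breast carcinoma grown in RPMI medium with serum. They were taken as the 5 columns of the table of the microRNA experiment, 2 named miR1454D and 3 named ScRNA4D. The labels contradict each other on what these cells received. By the column and library names, the 2 miR1454D libraries are the microRNA group and the 3 ScRNA4D libraries the scrambled one. By the titles and the treatment entries it is the reverse, with the 2 miR1454D libraries given a scrambled negative control and the 3 ScRNA4D libraries given miR-145a-3p. The groups are therefore called miR1454D and ScRNA4D throughout, and every direction is that of miR1454D relative to ScRNA4D. By the column names, which give no strand, a gene higher in miR1454D is higher with the microRNA. By the titles it is lower with miR-145a-3p. The dose, the way of delivery and the time of treatment of these 5 libraries are in none of the sources used here. The labels call the libraries biological replicates without naming separate cultures, so the p-values reflect only how far these libraries spread, and that spread may be technical.

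MicroRNAs are short RNAs that guide Argonaute proteins to messenger RNAs, whose translation is then repressed and whose decay is sped up. The hairpin of mir-145 yields a 5p and a 3p strand. The 5p strand is known from smooth muscle and epithelium, where its reported targets include regulators of the actin cytoskeleton, growth factor receptors and their signalling. Messenger RNA libraries do not hold mature microRNAs. The host transcript Carmn and the annotated genes Mir145a, Mir145b and Mir143 were at 0 counts in all 5 libraries, which checks nothing about a small RNA added to the cells.

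RNA from a stranded messenger RNA kit gave totals of 24972592 to 32637552 estimated counts per library. Of 57126 genes in the table, 10751 were tested, those with 3 CPM (counts scaled for the size of each library) or more in at least 3 libraries. CPM values compare 1 gene between libraries and are not scaled for gene length, so levels of different genes are not compared. All 6 epithelial markers passed that filter, with a sum of 3070 to 3340 CPM in miR1454D and 3930 to 4110 CPM in ScRNA4D. The 6 leukocyte markers summed to 4.28 to 5.75 CPM in miR1454D and 3.19 to 3.92 CPM in ScRNA4D, nearly all from Csf1r, with Adgre1 at 0 counts in every library. The 7 fibroblast markers summed to 9.45 to 10.8 and 6.92 to 8.19 CPM, with Lum and Thy1 at 0 counts. The 4 endothelial and 6 adipocyte markers each summed to less than 1 CPM. The libraries differed in make-up. Mitochondrially encoded genes took 8.59% and 12.5% of the counts in miR1454D_1 and miR1454D_2, against 1.71% to 1.97% in ScRNA4D. The miR1454D_2 library stood further from ScRNA4D than miR1454D_1, with a median absolute log2 distance from the ScRNA4D mean of 0.32 against 0.25, and 0.04 to 0.05 for the ScRNA4D libraries themselves. With the mitochondrially encoded genes left out before scaling, 3083 genes were called higher and 3013 lower, close to the counts that follow. The part of the other differences in make-up in the results was not tested.

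By edgeR's quasi-likelihood test with Benjamini-Hochberg adjustment, from which every adjusted p here comes, 6093 of the 10751 genes (56.7%) were called at an adjusted p of 0.05. Of all genes tested, 3085 (28.7%) were higher in miR1454D and 3008 (28.0%) lower. A change of 2-fold or more was rarer, with 378 genes higher (3.52%) and 109 lower (1.01%). The libraries of the groups did not overlap for 7852 genes (73.0%). These shares are the background against which the counts of each gene group are to be read, as is the median log2 fold change of all genes tested, 0.01, with 10% of genes below -0.47 and 10% above 0.63. Sterol, mitosis, interferon and mitochondrially encoded genes are left aside. In the named values below, the miR1454D libraries are given in the order 1 and 2 and the ScRNA4D libraries in the order 1, 2 and 3. Most genes named in a list are its called members of smallest adjusted p. That choice favours close replicates and groups that are apart. Remarks on either therefore describe the named genes and say nothing of the rest of the list.

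Long noncoding RNAs were higher in miR1454D. These are transcripts without a known protein product, many of which stay in the nucleus. Of 238 tested in 6 annotated types, 157 rose and 17 fell, a median log2 fold change of 0.68. Their share of all counts was 0.873% and 0.920% in the miR1454D libraries and 0.581% to 0.598% in the ScRNA4D libraries. The rises ran through the types, with 59 of 78 lincRNA genes, 41 of 71 antisense RNAs and 48 of 73 processed transcripts called higher. Both miR1454D libraries showed it, with median log2 differences from the ScRNA4D mean of 0.52 and 0.73 over the 238 genes. Leaving out any 1 library left between 137 and 147 called higher.

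Neat1, the RNA scaffold of paraspeckles, was at 467 and 601 CPM in miR1454D and 150.3, 183 and 177 CPM in ScRNA4D, a log2 fold change of 1.65 (SE 0.12, adjusted p = 8.03e-05). Malat1, an abundant RNA of nuclear speckles, was at 629.9 and 475 against 202, 201 and 213 CPM, a log2 fold change of 1.43 (SE 0.11, adjusted p = 9.59e-05). Both RNAs were thus more than 2-fold higher with no overlap between the groups. Firre, an RNA that organises nuclear chromatin, was at 79.8 and 94.1 against 37.6, 39.5 and 37.5 CPM, a log2 fold change of 1.18 (SE 0.08, adjusted p = 6.76e-05). Kcnq1ot1, an imprinted antisense RNA, had few counts at 14.2 and 11.02 against 3.45, 2.87 and 2.96 CPM and a log2 fold change of 2.03 (SE 0.17, adjusted p = 0.000113). Of the 13 tested members of the list of nuclear long noncoding RNAs, 11 rose and 1 fell. No source used here says whether the authors counted by strand, so reads of an antisense RNA may include some of the gene that it overlaps.

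Of 14 small RNA host genes 13 were called higher and none lower, with a median log2 fold change of 0.98 that was 0.81 relative to the median of protein-coding genes of like length, a comparison described below. Their introns carry small nucleolar RNAs, and their spliced transcripts are known as substrates of nonsense-mediated decay. Snhg20 was at 65.3 and 92.8 CPM in miR1454D and 21.5, 21.2 and 20.4 CPM in ScRNA4D, a log2 fold change of 1.91 (SE 0.13, adjusted p = 7.4e-05). Snhg3 was at 69.8 and 103 against 27.03, 24.3 and 23.7 CPM, a log2 fold change of 1.79 (SE 0.15, adjusted p = 0.000113). Snhg6 was at 151 and 155 against 67.1, 73.2 and 70.3 CPM, a log2 fold change of 1.12 (SE 0.06, adjusted p = 3.21e-05). Its miR1454D libraries lay closer together than those of Snhg20 and Snhg3, and in all 3 genes the groups were apart. Snhg4 rose by less, with 83.2 and 97.01 against 46.5, 49.1 and 46.3 CPM and a log2 fold change of 0.93 (SE 0.08, adjusted p = 0.000113). Mir22hg, the host transcript of another microRNA, was at 16.9 and 27.7 against 4.88, 5.73 and 6.03 CPM, a log2 fold change of 2.00 (SE 0.21, adjusted p = 0.000235).

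Processed pseudogenes, copies of messenger RNAs inserted in the genome, gave no common direction. Of 204 tested, 12 rose and 63 fell, but their median log2 difference from the ScRNA4D mean was -0.53 in miR1454D_1 and 0.15 in miR1454D_2. Without miR1454D_1, 78 were called higher, and without miR1454D_2, 4 were called higher and 138 lower. Reads of a pseudogene cannot be told apart from those of its parent gene where the sequences match, and values of single pseudogenes are uncertain. Rps2-ps10 was at 1059 and 554 CPM in miR1454D and 1976, 1760.5 and 1954 CPM in ScRNA4D, a log2 fold change of -1.23 (SE 0.23, adjusted p = 0.00277). Its parent Rps2 went the other way, at 1576 and 2003 against 1432, 1284 and 1336 CPM, a log2 fold change of 0.41 (SE 0.10, adjusted p = 0.0111), a call lost without ScRNA4D_2. Rbpj-ps3 (log2 fold change -1.56) and Tdg-ps2 (-1.53) fell together with their parents Rbpj (-0.52) and Tdg (-0.95).

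Among 10144 protein-coding genes the calls followed transcript length, taken from the longest annotated transcript. In the shortest decile, up to 1495 bases, 51.8% of genes were called higher and 5.91% lower, and in the longest, from 6891 bases, 18.2% were higher and 40.0% lower. The median log2 fold change passed from 0.28 in the shortest decile to -0.14 in the longest, and across genes Spearman's correlation of length and log2 fold change was -0.28. Genes are not independent replicates, and all of them share the 5 libraries, so no p is given. Both miR1454D libraries showed the gradient, more steeply in miR1454D_2, where the deciles ran from 0.34 to -0.21, than in miR1454D_1, where they ran from 0.20 to -0.07. The ScRNA4D libraries differed along the same axis by less, from 0.06 in ScRNA4D_1 to -0.05 in ScRNA4D_2 for the shortest decile. Genes with over 20 exons were called lower in 43.6% and higher in 17.8% of 1322 cases. GC content of the transcript varied far less with the fold change, with a Spearman correlation of 0.06. Because of this gradient, many medians below are also given relative to the median of protein-coding genes in the same length decile. That comparison was chosen after the gradient was seen.

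**Figure D1:**
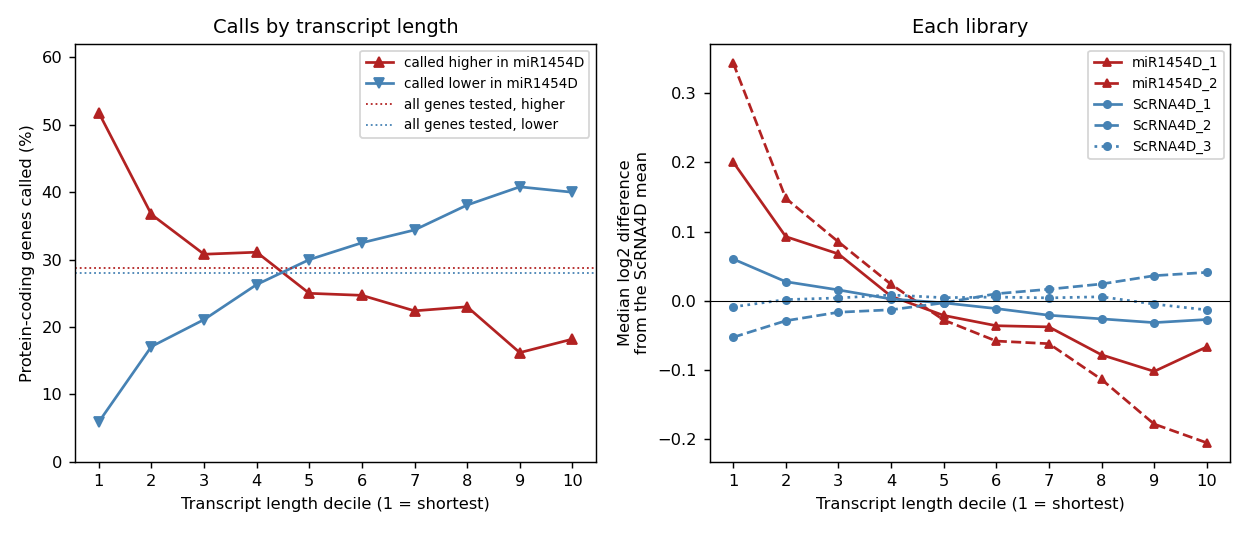
Left, the share of protein-coding genes called higher or lower in miR1454D in each decile of transcript length, with dotted lines at 28.7% and 28.0% for all genes tested. Right, the median log2 difference of each library from the ScRNA4D mean in the same deciles, which runs from 0.34 to -0.21 in miR1454D_2 and from 0.20 to -0.07 in miR1454D_1.

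Short transcripts of 3 protein families moved with that gradient. Nuclear genes of oxidative phosphorylation, which encode respiratory chain subunits, had 49 of 79 called higher and 7 lower, a median log2 fold change of 0.29 that was 0.14 relative to the length decile. Ndufb3, a subunit of complex I, was at 58.2 and 71.05 CPM in miR1454D and 34.6, 31.9 and 35.9 CPM in ScRNA4D, a log2 fold change of 0.92 (SE 0.10, adjusted p = 0.000233). Ndufa12, also of complex I, was at 124 and 123 against 86.2, 80.3 and 89.9 CPM, a log2 fold change of 0.54 (SE 0.06, adjusted p = 0.000333). The catalytic head of ATP synthase went the other way. Its subunit Atp5f1a was at 500.5 and 424 against 825, 792 and 830.5 CPM, a log2 fold change of -0.82 (SE 0.08, adjusted p = 0.000194), and Atp5f1b at 1109.5 and 983 against 1664, 1614 and 1644 CPM, a log2 fold change of -0.65 (SE 0.07, adjusted p = 0.000309).

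Mitochondrial ribosomal proteins had 44 of 78 called higher and 6 lower, a median of 0.25 that was 0.14 relative to length. Mrpl33 was at 127 and 148 CPM in miR1454D and 73.1, 67.9 and 65.1 CPM in ScRNA4D, a log2 fold change of 1.00 (SE 0.08, adjusted p = 0.000102). Further rises on the log2 scale were Mrpl24 (0.78), Mrpl51 (0.66) and Mrps17 (0.64), each with its groups apart. Their count of rises fell to 27 without ScRNA4D_2 and to 25 without ScRNA4D_3. Cytosolic ribosomal proteins had 38 of 84 called higher and 5 lower, but their median of 0.22 shrank to 0.08 without miR1454D_2 and to 0.03 relative to length. That count also rested on single libraries, falling to 16 without ScRNA4D_2 and to 18 without ScRNA4D_3 and rising to 66 without miR1454D_1. Rps24 was at 989 and 1302 against 719, 658 and 658 CPM, a log2 fold change of 0.76 (SE 0.11, adjusted p = 0.000877), and the other leading members were Rpl22 (0.68), Rplp2 (0.65) and Rps12 (0.56) on the log2 scale. In all 4 of these genes miR1454D_2 was the higher of the miR1454D libraries. Ribosomal protein genes have many processed copies, so their values carry the uncertainty given for pseudogenes.

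Zinc finger proteins, mostly transcription factors and repressors of repeats, leaned higher although their transcripts are not short. Of 299 tested, 116 were called higher (38.8%) and 37 lower (12.4%), with a median log2 fold change of 0.20 that was 0.22 relative to length. Zfp948 was at 58.3 and 66.1 CPM in miR1454D and 21.03, 20.6 and 20.1 CPM in ScRNA4D, a log2 fold change of 1.60 (SE 0.07, adjusted p = 3.21e-05). Zfp868 followed with 46.4 and 56.1 against 20.4, 20.3 and 20.7 CPM, a log2 fold change of 1.32 (SE 0.09, adjusted p = 6.76e-05). Zfp57, which guards imprinted methylation, was at 20.8 and 25.3 against 7.98, 7.54 and 6.84 CPM, a log2 fold change of 1.63 (SE 0.13, adjusted p = 0.000102). Zfp955b had 49.1 and 54.1 against 25.4, 27.6 and 24.5 CPM, a log2 fold change of 1.00 (SE 0.08, adjusted p = 0.000102). Each of the 4 had all its miR1454D values above all its ScRNA4D values. Zfp575 was 1 of the 15 largest rises, but its miR1454D libraries differed widely, at 75.3 and 188 CPM against 39.96, 29.1 and 32.3 CPM in ScRNA4D, a log2 fold change of 1.96 (SE 0.32, adjusted p = 0.0015).

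In nuclear transport the difference ran the other way. Importins and exportins carry proteins and RNA through the nuclear pore, which nucleoporins build. Of 41 tested genes of this machinery, 33 were lower in miR1454D (80.5%) and 1 higher, against 28.0% and 28.7% of all genes. The median log2 fold change was -0.33, and -0.27 relative to length. Tnpo1, the import receptor transportin 1, was at 167 and 143 CPM in miR1454D and 252, 276 and 251 CPM in ScRNA4D, a log2 fold change of -0.74 (SE 0.08, adjusted p = 0.000285). Kpna6, an importin alpha, was at 65.8 and 68.3 against 104, 109 and 108 CPM, a log2 fold change of -0.68 (SE 0.06, adjusted p = 0.000113). Xpo7, an exportin, was at 67.02 and 70.6 against 99.6, 106 and 102 CPM, a log2 fold change of -0.58 (SE 0.06, adjusted p = 0.000213). Import and export receptors were thus lower alike. The pore protein Nup214 was at 72.5 and 67.2 against 98.4, 102 and 97.7 CPM, a log2 fold change of -0.51 (SE 0.06, adjusted p = 0.000348). All 4 genes, picked for their small adjusted p, had the miR1454D libraries close together and below every ScRNA4D library. With any 1 library left out, 28 to 35 members were called lower. The 1 gene that rose was Tnpo2, a close relative of Tnpo1, with a log2 fold change of 0.19 (SE 0.05, adjusted p = 0.0168), and with 1 library left out the rises numbered 0 to 3.

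Genes of the lysosome, the acidic compartment where cells degrade macromolecules, were higher in miR1454D. Of 16 tested genes of the vacuolar proton pump, which acidifies lysosomes, 13 rose and 2 fell, a median log2 fold change of 0.38 that was 0.29 relative to length. Of 47 lysosome and autophagy genes, 23 rose and 3 fell, a median of 0.21 both as measured and relative to length. Without miR1454D_1 the median was 0.13 and 6 were called lower. Many genes of this group are known to share a transcription factor motif, CACGTG, the core of the site bound by TFEB, TFE3 and MITF. The promoters of 1 pump gene and 1 lysosomal gene are printed as examples, from RefSeq on GRCm38.p6, as windows of 300 bases that run from 250 bases before the start site to 50 after it. In each list the example is the called gene with the largest rise among those whose window holds the motif. Capitals mark CACGTG, which reads the same on both strands. The Atp6v0b window is chr4:117887280-117887579 on the minus strand and the Gla window chrX:134600956-134601255 on the minus strand.
Atp6v0b: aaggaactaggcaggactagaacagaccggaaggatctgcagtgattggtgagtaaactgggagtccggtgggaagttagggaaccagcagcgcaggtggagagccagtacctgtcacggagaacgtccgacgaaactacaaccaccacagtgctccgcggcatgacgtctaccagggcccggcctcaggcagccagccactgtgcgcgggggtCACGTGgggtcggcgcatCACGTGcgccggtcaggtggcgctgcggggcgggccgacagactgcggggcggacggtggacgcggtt
Gla: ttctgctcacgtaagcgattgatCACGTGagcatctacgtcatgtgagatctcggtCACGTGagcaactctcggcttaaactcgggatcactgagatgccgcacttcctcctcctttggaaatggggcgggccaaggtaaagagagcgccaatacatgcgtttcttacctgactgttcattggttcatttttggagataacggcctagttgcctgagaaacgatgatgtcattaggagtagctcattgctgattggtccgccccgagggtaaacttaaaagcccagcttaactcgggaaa
Each window holds 2 copies. In Atp6v0b they begin 36 and 18 bases before the start site, and in Gla 227 and 194 bases before it.

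The motif was present in the windows of 12 of the 37 lysosome and autophagy genes with a window (32.4%) and of 4 of the 11 pump genes (36.4%), against 8.09% of the 27025 genes with a window and 12.5% of the tested genes. It did not separate the directions. Among all genes tested, 12.5% of those called higher, 13.4% of those called lower and 11.8% of those not called held it. Within the lysosome and autophagy list, 6 of 18 called higher and 5 of 17 not called held it. A match is a description of these letters in this window and not a binding site.

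Atp6v0b, a membrane subunit of the pump, was at 137 and 147 CPM in miR1454D and 71.1, 69.1 and 67.7 CPM in ScRNA4D, a log2 fold change of 1.04 (SE 0.06, adjusted p = 3.81e-05). Atp6v0a1, also of the membrane part, was at 41.2 and 43.5 against 22.7, 23.5 and 23.3 CPM, a log2 fold change of 0.87 (SE 0.07, adjusted p = 0.000102). Atp6v0c, which forms the proton-carrying ring, was at 391 and 378 against 248, 239 and 255 CPM, a log2 fold change of 0.64 (SE 0.06, adjusted p = 0.000136). In each of them the miR1454D libraries agreed closely. Atp6v1d, of the cytosolic part of the pump, was at 60.05 and 59.7 against 33.6, 32.2 and 35.2 CPM, a log2 fold change of 0.83 (SE 0.06, adjusted p = 0.000102). Subunits of both parts of the pump were thus higher in both miR1454D libraries.

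Among lysosomal proteins, Hexa, a subunit of lysosomal hexosaminidase, was at 14.6 and 15.2 against 6.51, 5.44 and 5.84 CPM, a log2 fold change of 1.33 (SE 0.13, adjusted p = 0.000182). The sialidase gene Neu1 was at 26.2 and 23.98 against 11.8, 11.4 and 10.9 CPM, a log2 fold change of 1.14 (SE 0.09, adjusted p = 0.000111). Both hydrolase genes were more than 2-fold higher. Mcoln1, a calcium channel of the lysosome, was at 53.7 and 55.3 against 29.4, 30.6 and 31.3 CPM, a log2 fold change of 0.84 (SE 0.06, adjusted p = 9.49e-05). Grn, which encodes the lysosomal and secreted protein progranulin, was at 311 and 305 against 161, 152 and 165 CPM, a log2 fold change of 0.95 (SE 0.06, adjusted p = 5.51e-05). Gla, the alpha-galactosidase whose promoter is shown above, was at 11.4 and 10.1 against 5.62, 5.17 and 5.72 CPM, a log2 fold change of 0.97 (SE 0.14, adjusted p = 0.000751). In each of these 5 genes the miR1454D libraries differed from each other by far less than from ScRNA4D. Mitf, singled out after its values were seen because its protein binds the motif above, was low, at 7.98 and 7.48 against 3.45, 2.66 and 2.77 CPM, a log2 fold change of 1.39 (SE 0.17, adjusted p = 0.000388). Values of the genes of TFEB and TFE3 are not given here, and the part of these factors in the rises was not tested. Gpnmb, a membrane glycoprotein of late endosomes and melanosomes and 1 of the 15 largest rises, was at 18.9 and 16.6 against 4.88, 5.14 and 5.26 CPM, a log2 fold change of 1.80 (SE 0.12, adjusted p = 6.76e-05).

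Endocytosis and vesicle coat genes were more often called lower than higher in miR1454D. Of 40 endocytosis and adaptor genes, 21 fell and 6 rose, with a median log2 fold change of -0.20. Ap2b1, a subunit of the clathrin adaptor of the plasma membrane, was at 114 and 98.2 CPM in miR1454D and 176, 187 and 174 CPM in ScRNA4D, a log2 fold change of -0.75 (SE 0.08, adjusted p = 0.000219). Its partner Ap2a2 was at 79.9 and 79.4 against 113, 119 and 119 CPM, a log2 fold change of -0.56 (SE 0.06, adjusted p = 0.000194). Both of these subunits of the adaptor thus fell, and its other subunits are not given here. Flot2, a protein of membrane microdomains, was at 61.2 and 57.6 against 91.5, 95.98 and 97.7 CPM, a log2 fold change of -0.68 (SE 0.06, adjusted p = 0.000147). The GTPase gene Arf3 was at 126 and 118 against 175, 179 and 182 CPM, a log2 fold change of -0.56 (SE 0.06, adjusted p = 0.000219). None of these 4 genes had overlapping groups. Ston1, a stonin that links cargo to clathrin coats and 1 of the 15 largest falls, was at 12.7 and 7.92 against 25.8, 27.9 and 24.8 CPM, a log2 fold change of -1.33 (SE 0.18, adjusted p = 0.000593). Among 19 genes of the COPI and COPII coats, which form vesicles between the endoplasmic reticulum and the Golgi, 10 fell and 3 rose, a median of -0.25. Copg2, of the COPI coat, was at 18.5 and 18.98 against 30.4, 29.3 and 29.5 CPM, a log2 fold change of -0.67 (SE 0.07, adjusted p = 0.00028). Sec23a, of the COPII coat, was at 32.6 and 29.2 against 46.9, 51.6 and 43.2 CPM, a log2 fold change of -0.61 (SE 0.09, adjusted p = 0.00105). Copb2 (-0.47) and Sec24c (-0.35) also fell, so that both coats held falls.

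Rab GTPases, which mark membrane compartments, had 15 of 40 called lower and 4 higher, 37.5% and 10.0%. Their median of -0.04 lay near that of all genes and was 0.01 with upper quartile scaling. Rab1b, of traffic from the endoplasmic reticulum to the Golgi, was at 96.5 and 89.6 CPM in miR1454D and 149.9, 140.2 and 153 CPM in ScRNA4D, a log2 fold change of -0.67 (SE 0.06, adjusted p = 0.00018). Rab8b was at 31.6 and 30.6 against 44.3, 48.8 and 48.5 CPM, a log2 fold change of -0.60 (SE 0.07, adjusted p = 0.000372). Rab1a (-0.47) and Rab35 (-0.41) fell by less on the log2 scale. SNARE proteins, which fuse membranes, were called evenly, with 9 of 33 higher and 9 lower. Among them Stx1a, a syntaxin of regulated secretion, was at 36.1 and 50.5 against 18.3, 18.03 and 19.9 CPM, a log2 fold change of 1.21 (SE 0.13, adjusted p = 0.000291). Vamp3, of endosome recycling, was at 75.4 and 69.5 against 101, 102 and 98.9 CPM, a log2 fold change of -0.47 (SE 0.06, adjusted p = 0.000457). Stx16 (0.68) rose and Ykt6 (-0.46) fell. Genes of exosome and vesicle release were also called evenly, with 6 of 20 higher and 6 lower. The tetraspanin gene Cd63 (0.48) and the syntenin relative Sdcbp2 (0.93) rose, and Pdcd6ip, which encodes the ESCRT partner ALIX, fell (-0.66). ESCRT proteins, which bud membranes away from the cytosol, had 8 of 24 called lower (33.3%) and 4 higher (16.7%), against 28.0% and 28.7% of all genes. They had 5 lower without miR1454D_2, ScRNA4D_1 or ScRNA4D_3 and 2 higher without ScRNA4D_2 or ScRNA4D_3. The ATPase gene Vps4b (-0.73), which disassembles the complexes, and the subunit genes Chmp6 (-0.53), Chmp1b2 (-0.63) and Chmp7 (-0.39) fell.

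**Figure D2:**
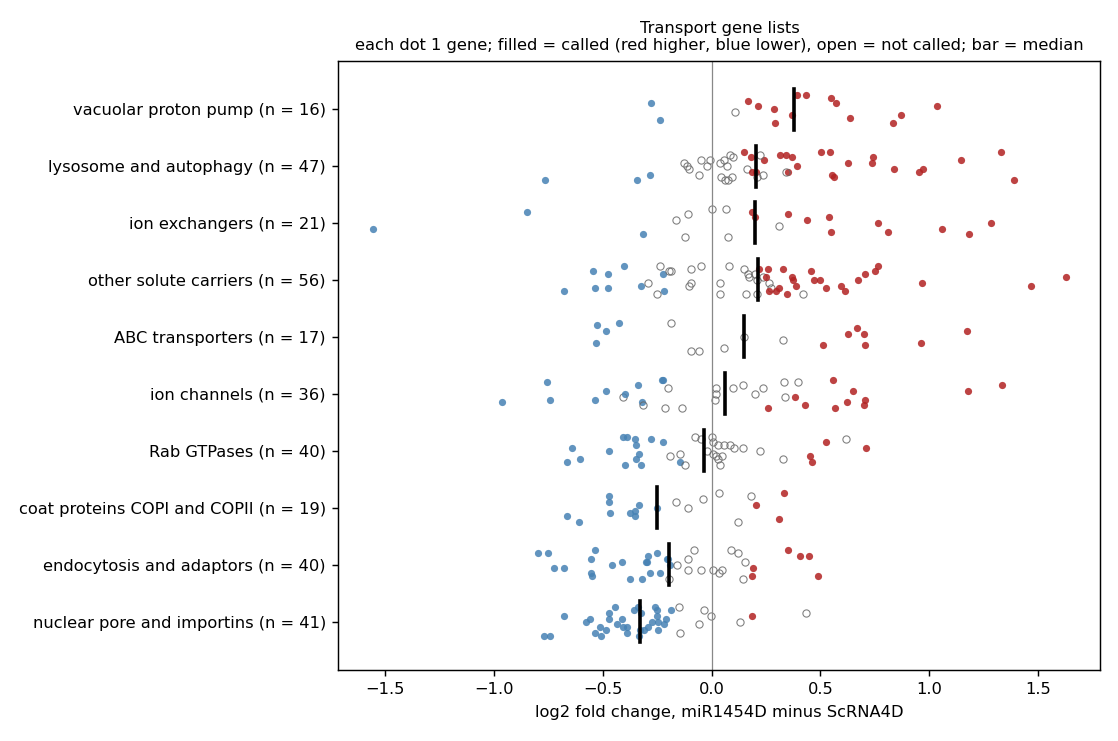
Log2 fold change of every tested gene in 10 transport lists, miR1454D minus ScRNA4D, with called genes filled and the list median as a bar. Of the nuclear pore and importin genes 33 of 41 lie on the called lower side, and of the vacuolar proton pump genes 13 of 16 on the called higher side.

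Some lists of plasma membrane and organelle transporters leaned higher, while others were near the background. Of 21 ion exchangers and cotransporters 11 rose and 3 fell, and of 56 solute carriers for organic ions, nucleosides, vitamins, phosphate and lipids 24 rose and 9 fell, with medians of 0.20 and 0.21 that did not shrink relative to length. Slc27a1, a fatty acid carrier, was at 97.6 and 111 CPM in miR1454D and 34.2, 33.2 and 33.7 CPM in ScRNA4D, a log2 fold change of 1.63 (SE 0.07, adjusted p = 2.17e-05). Slc9a5, a sodium-proton exchanger, was at 149 and 185 against 69.2, 66.8 and 69.4 CPM, a log2 fold change of 1.28 (SE 0.09, adjusted p = 7.21e-05). Both genes were more than 2-fold higher in each miR1454D library than in any ScRNA4D library. The phosphate carrier Slc20a1 rose by less, at 251 and 272 against 156, 166 and 169.7 CPM, a log2 fold change of 0.67 (SE 0.06, adjusted p = 0.000166). Against the trend, the bicarbonate cotransporter Slc4a4 was at 2.61 and 2.17 against 6.47, 7.83 and 6.84 CPM, a log2 fold change of -1.55 (SE 0.18, adjusted p = 0.000329) at a low level. Further rises were Slc26a11 (1.18), Clcn7 (0.70) and Slc12a4 (0.54) among exchangers and Slc35e2 (0.76) and Slc35b1 (0.52) among the other carriers, on the log2 scale.

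Of 17 ABC transporters 7 rose (41.2%) and 4 fell (23.5%), against 28.7% and 28.0% of all genes. The exporter Abcc5 led the rises, at 55.6 and 59.9 CPM in miR1454D and 23.9, 28.5 and 24.3 CPM in ScRNA4D, a log2 fold change of 1.17 (SE 0.09, adjusted p = 0.0001). The drug exporter gene Abcb1b was at 134 and 125 against 79.8, 89.01 and 83.1 CPM, a log2 fold change of 0.63 (SE 0.06, adjusted p = 0.000225). Abca7 (0.96) rose and Abca3 (-0.48) fell. Of 36 ion channels 11 rose and 10 fell, with Ano9, a TMEM16 family member, at 23.9 and 27.6 against 11.3, 11.1 and 11.7 CPM, a log2 fold change of 1.18 (SE 0.10, adjusted p = 0.000113). The calcium-activated potassium channel Kcnn4 was at 209 and 223 against 149, 141 and 147 CPM, a log2 fold change of 0.57 (SE 0.06, adjusted p = 0.000197). Kcnk2, a leak potassium channel, rose as well (0.70). These shares of ion channels, 30.6% and 27.8%, are near the background. Metal carriers were mostly uncalled, with 4 of 21 higher and 3 lower, among them the zinc importer Slc39a4 at 44.01 and 40.5 against 23.2, 19.9 and 19.8 CPM, a log2 fold change of 1.01 (SE 0.09, adjusted p = 0.00014). The copper carrier Slc31a2 (1.02) and the zinc carrier Slc39a13 (0.45) rose, while the zinc importer Slc39a10 fell (-0.58). Without miR1454D_1, 8 metal carriers were called lower.

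Of 19 amino acid transporters 7 rose (36.8%) and 4 fell (21.1%), against 28.7% and 28.0% of all genes. Their median log2 fold change was -0.04, so the list had no common direction. Slc38a9, the arginine sensor of the lysosome, was at 14.9 and 13.8 CPM in miR1454D and 7.32, 8.33 and 6.45 CPM in ScRNA4D, a log2 fold change of 0.96 (SE 0.14, adjusted p = 0.00084). Slc38a6 (1.00) and Slc3a2 (0.40), the shared chain of several amino acid exchangers, rose, while the taurine carrier Slc6a6 fell (-0.32). Of 9 sugar and monocarboxylate transporters 4 rose and 1 fell. The sugar carrier Slc50a1 was at 27.6 and 35.9 against 18.01, 16.05 and 17.1 CPM, a log2 fold change of 0.90 (SE 0.12, adjusted p = 0.000582). Slc16a6 (0.71) and the inositol carrier Slc5a3 (0.42) rose, and Slc16a13 (-0.30) was the single fall, a call lost without ScRNA4D_2 or ScRNA4D_3. Of 36 mitochondrial carriers 12 rose and 10 fell, shares near the background. The list held Slc25a37, the iron importer mitoferrin 1, at 174 and 191 against 109, 114 and 109 CPM, a log2 fold change of 0.72 (SE 0.06, adjusted p = 0.000115). Slc25a27 (0.98) rose, while Slc25a13, an aspartate and glutamate carrier (-0.56), and Slc25a30 (-0.45) fell.

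Genes of the actin cytoskeleton and smooth muscle were lower in miR1454D, with 20 of 30 tested members called lower and 2 higher and a median log2 fold change of -0.34, or -0.30 relative to length. Cttn, which encodes the actin-branching protein cortactin, was at 149 and 147 CPM in miR1454D and 282, 289 and 297 CPM in ScRNA4D, a log2 fold change of -0.97 (SE 0.06, adjusted p = 4.94e-05). Myh10, nonmuscle myosin IIB, was at 138 and 109.7 against 242, 255 and 245 CPM and fell by 1.00 on the log2 scale (SE 0.09, adjusted p = 0.000176). Both were about 2-fold lower with the groups far apart, and the miR1454D libraries of Myh10 differed more than those of Cttn. The tropomyosin gene Tpm3 was at 253 and 259.8 against 392, 374 and 372 CPM, a log2 fold change of -0.57 (SE 0.06, adjusted p = 0.000214). The calponin gene Cnn3 was at 265 and 254 against 377, 371 and 361 CPM, a log2 fold change of -0.51 (SE 0.06, adjusted p = 0.000288).

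Targets of YAP and TEAD, which respond to tension and cell contact, fell in 14 of 27 cases and rose in 3, with a median of -0.21. Asap1, an ARF regulator at adhesions, was at 144 and 139 CPM in miR1454D and 252, 268 and 255 CPM in ScRNA4D, a log2 fold change of -0.87 (SE 0.06, adjusted p = 6.76e-05). Yap1 itself was at 127 and 125 against 169, 182 and 169 CPM, a log2 fold change of -0.46 (SE 0.06, adjusted p = 0.000464). The stress gene Gadd45a went the other way, at 30.5 and 36.1 against 12.5, 10.96 and 12.7 CPM, a log2 fold change of 1.47 (SE 0.11, adjusted p = 8.99e-05). Of 30 genes of epithelial junctions 12 fell and 5 rose. Alpha catenin, Ctnna1, was at 227 and 210.0 against 350.5, 348 and 347 CPM, a log2 fold change of -0.67 (SE 0.06, adjusted p = 0.000131). The polarity gene Pard3 was at 46.8 and 39.1 against 77.3, 82.4 and 79.03 CPM, a log2 fold change of -0.89 (SE 0.08, adjusted p = 0.000176), and its partner Pard6b also fell (-0.87). The junctional adhesion gene F11r rose (0.49).

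E-cadherin, Cdh1, was not called and its groups overlapped, at 499.7 and 444 CPM in miR1454D and 476, 505 and 513 CPM in ScRNA4D, a log2 fold change of -0.08 (SE 0.07, adjusted p = 0.374). It was called lower without miR1454D_1 and with no filter on low counts. Vim, the vimentin gene, was not called either, at 2819 and 2607 against 2630.4, 2637 and 2566 CPM, a log2 fold change of 0.06 (SE 0.07, adjusted p = 0.505). The list of regulators of epithelial-mesenchymal transition and mesenchymal genes had 8 of 19 lower and 4 higher. Mmp9, a matrix protease, was at 215 and 169.7 against 332, 354 and 363 CPM, a log2 fold change of -0.86 (SE 0.10, adjusted p = 0.00035). Timp1, a protease inhibitor, was at 114 and 123 against 76.5, 71.7 and 71.3 CPM, a log2 fold change of 0.69 (SE 0.06, adjusted p = 0.000134). The calcium-binding protein gene S100a4 (0.82) rose and the receptor kinase gene Axl (-0.47) fell, so that mesenchymal genes did not move in 1 direction.

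Genes of the Wnt pathway were more often called lower than higher. Wnt ligands bind Frizzled receptors and stabilise beta catenin, which then activates target genes with TCF factors. Of 21 ligands, receptors and inhibitors 9 fell and 2 rose, and of 14 target genes and TCF partners 8 fell and 2 rose, with medians of -0.26 and -0.48, or -0.14 and -0.40 relative to length. Without miR1454D_2 the median of the ligands, receptors and inhibitors was -0.06. Lgr6, a receptor that amplifies Wnt signals, was at 17.9 and 17.6 CPM in miR1454D and 33.96, 37.8 and 32.2 CPM in ScRNA4D, a log2 fold change of -0.97 (SE 0.09, adjusted p = 0.000166). The receptor gene Fzd2 was at 24.5 and 23.1 against 34.3, 37.6 and 37.8 CPM, a log2 fold change of -0.62 (SE 0.08, adjusted p = 0.000474). The inhibitor gene Sfrp1 also fell, at 16.7 and 15.97 against 24.4, 26.1 and 25.01 CPM, a log2 fold change of -0.63 (SE 0.08, adjusted p = 0.000531), so members with opposite roles moved alike. Ccnd1, cyclin D1, was at 1042 and 1004 against 1692, 1683 and 1747 CPM, a log2 fold change of -0.74 (SE 0.06, adjusted p = 0.000122). The coactivator Bcl9l was at 66.2 and 62.3 against 94.1, 97.6 and 99.1 CPM, a log2 fold change of -0.59 (SE 0.06, adjusted p = 0.000194), and its relative Bcl9 (-0.53) and the scaffold Axin1 (-0.44) fell with it. Ctnnb1, the beta catenin gene itself and chosen after its values were seen, was at 578 and 399 against 769, 799 and 755 CPM, a log2 fold change of -0.66 (SE 0.14, adjusted p = 0.00421), with the fall larger in miR1454D_2. Ccn4, a matricellular Wnt target, rose from 22.7, 26.98 and 23.9 CPM in ScRNA4D to 54.2 and 50.2 CPM in miR1454D, a log2 fold change of 1.09 (SE 0.09, adjusted p = 0.000104).

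Genes of growth factor signalling were more often called lower than higher, while the activity of the pathways was not measured. Of 21 genes that the ERK pathway induces or that feed back on it, 11 fell and 2 rose, with a median of -0.22. Hmga2, a chromatin protein of growing cells, was at 151 and 159 CPM in miR1454D and 243, 258 and 244 CPM in ScRNA4D, a log2 fold change of -0.68 (SE 0.06, adjusted p = 0.000124). Dusp6, a phosphatase of ERK, was at 88.8 and 84.01 against 114, 117 and 116 CPM, a log2 fold change of -0.42 (SE 0.05, adjusted p = 0.000548), and the transcription factor gene Etv5 also fell (-0.47). Of 9 EGF family ligands, receptors and regulators 4 fell and 2 rose. The ligand gene Areg was at 44.2 and 43.6 against 23.04, 20.9 and 19.02 CPM, a log2 fold change of 1.06 (SE 0.09, adjusted p = 0.000112), and the receptor gene Egfr, at a low level, rose by 0.75 on the log2 scale. The ligand gene Hbegf (-0.32) and Lrig1, an inhibitor of the receptors (-0.50), fell, so that ligands moved both ways.

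Of 17 G1 cyclins, their kinases, inhibitors and related factors 10 fell and 2 rose, with a median of -0.24. Ccnd2, a relative of cyclin D1, was at 62.2 and 65.3 CPM in miR1454D and 96.7, 98.7 and 92.8 CPM in ScRNA4D, a log2 fold change of -0.59 (SE 0.06, adjusted p = 0.000195). The growth regulator Myc was at 262 and 245 against 323, 311 and 319.7 CPM, a log2 fold change of -0.33 (SE 0.06, adjusted p = 0.00218), and E2f4, a repressor of cell cycle genes, fell by less (-0.35). The proliferation marker Mki67 did not follow them, at 716 and 639 against 613, 599.7 and 568 CPM, a log2 fold change of 0.19 (SE 0.07, adjusted p = 0.0493), a call lost when any 1 library but miR1454D_2 was left out. That call lay at the threshold and was lost without any 1 of the ScRNA4D libraries or without miR1454D_1.

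Of 48 phosphoinositide kinases, phosphatases and related enzymes, which relay growth factor signals at membranes, 23 fell and 6 rose, with a median log2 fold change of -0.17 that was -0.10 relative to length. The kinase gene Pik3cb was at 44.6 and 48.4 CPM in miR1454D and 66.9, 71.01 and 69.2 CPM in ScRNA4D, a log2 fold change of -0.57 (SE 0.07, adjusted p = 0.000334). Pip4k2b was at 92.7 and 93.7 against 132, 133 and 129 CPM, a log2 fold change of -0.50 (SE 0.05, adjusted p = 0.00022), and the phosphatase gene Mtmr2 fell by a like amount (-0.46). In the insulin and IGF list 8 of 22 fell and 1 rose, a count of falls that was 4 without ScRNA4D_1 or ScRNA4D_3 and 5 without ScRNA4D_2 or miR1454D_2. Its median of -0.12 was -0.05 without miR1454D_2 and -0.02 relative to length. Irs2, an adaptor of the insulin receptor, was at 56.2 and 48.9 against 69.8, 75.6 and 70.8 CPM, a log2 fold change of -0.45 (SE 0.08, adjusted p = 0.00179), and the growth kinase Mtor fell too (-0.34). Insr, the receptor, was not called, at 43.6 and 36.1 against 38.3, 42.2 and 38.2 CPM, a log2 fold change of 0.01 (SE 0.09, adjusted p = 0.925). The adaptor Irs1 was not called, at 17.3 and 15.7 against 15.6, 16.9 and 13.8 CPM, a log2 fold change of 0.09 (SE 0.12, adjusted p = 0.517). In both of these genes the groups overlapped.

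The Notch and bone morphogenetic protein (BMP) families held strong changes in both directions. Notch receptors release a fragment that acts with Rbpj on Hes genes, and BMP signals act through Smad proteins on Id genes. Of 18 Notch genes 4 rose and 7 fell, and 4 fell without ScRNA4D_2 or without ScRNA4D_3. The target gene Hes1 was at 122 and 135 CPM in miR1454D and 39.7, 37.6 and 40.3 CPM in ScRNA4D, a log2 fold change of 1.72 (SE 0.07, adjusted p = 2.17e-05). The ligand gene Jag1 was at 219 and 201 against 106, 123 and 118 CPM, a log2 fold change of 0.86 (SE 0.07, adjusted p = 0.000128). These rises contrast with the receptor gene Notch1, at 45.8 and 38.8 against 57.7, 64.2 and 63.8 CPM, a log2 fold change of -0.55 (SE 0.09, adjusted p = 0.00137). The DNA-binding partner Rbpj was at 107 and 107 against 149, 158 and 152 CPM, a log2 fold change of -0.52 (SE 0.05, adjusted p = 0.000233).

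Of 30 genes of the BMP and TGF beta family 6 rose and 10 fell (33.3%). Id1, an inhibitor of basic helix-loop-helix factors, was at 79.4 and 89.4 CPM in miR1454D and 30.6, 28.6 and 28.9 CPM in ScRNA4D, a log2 fold change of 1.52 (SE 0.07, adjusted p = 3.21e-05). Its relative Id2 was at 36.6 and 36.5 against 17.9, 20.1 and 16.3 CPM, a log2 fold change of 1.01 (SE 0.10, adjusted p = 0.000176). Among upstream genes, the receptor gene Tgfbr2 was at 80.00 and 70.8 against 138, 144 and 142 CPM, a log2 fold change of -0.90 (SE 0.07, adjusted p = 9.12e-05). The ligand gene Bmp7 was at 35.3 and 33.1 against 58.4, 55.2 and 53.98 CPM, a log2 fold change of -0.71 (SE 0.07, adjusted p = 0.000185). In none of these 8 Notch and BMP family genes did the groups overlap.

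Interleukin and chemokine genes were called in 1 direction. Of 20 interleukins and receptors 12 rose and none fell, and of 8 chemokines 5 rose and none fell, with medians of 0.31 and 0.69, or 0.20 and 0.54 relative to length. Without miR1454D_1, 2 interleukin genes were called lower. The list of the tumour necrosis factor family, another family of cytokines and their receptors, had 1 of 8 called higher and 2 lower. Its receptor genes Tnfrsf21 (-0.37) and Tnfrsf22 (-0.18) fell and Tnfrsf12a rose (0.19). The calls of Tnfrsf22 and Tnfrsf12a were lost when any 1 ScRNA4D library was left out. Cd40, a receptor of the family that rose by 1.99 on the log2 scale, is not in that list, so the count does not cover the whole family. Cxcl1, a neutrophil attractant, was at 42.4 and 44.8 CPM in miR1454D and 22.4, 20.5 and 20.3 CPM in ScRNA4D, a log2 fold change of 1.05 (SE 0.07, adjusted p = 8.05e-05). Ccl25 was at 13.2 and 13.6 against 4.26, 4.82 and 4.53 CPM, a log2 fold change of 1.56 (SE 0.13, adjusted p = 0.000113). Cxcl10, which interferon also induces (1.26), and Cxcl16 (0.42) rose as well. The interleukin gene Il1a was at 15.9 and 13.2 against 6.70, 7.71 and 5.53 CPM, a log2 fold change of 1.13 (SE 0.16, adjusted p = 0.000868). The receptor gene Il17ra was at 78.8 and 81.1 against 55.9, 56.8 and 54.2 CPM, a log2 fold change of 0.52 (SE 0.06, adjusted p = 0.00028), with further rises of receptors in Il6ra (0.86) and Il17rc (0.61). The leukocyte marker Csf1r was called higher too, a call lost without miR1454D_1, ScRNA4D_2 or ScRNA4D_3, while Adgre1 was at 0 counts and the leukocyte markers together stayed below 6 CPM, and their part in these rises was not tested. In bulk RNA, fewer cells of a type and less RNA per cell cannot be told apart.

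Among 25 targets and feedback genes of NF-kB, 11 rose and 5 fell. The inhibitor gene Nfkbia was at 110.2 and 116 CPM in miR1454D and 63.6, 62.7 and 62.5 CPM in ScRNA4D, a log2 fold change of 0.85 (SE 0.05, adjusted p = 6e-05). Tnfaip3, a further inhibitor, was at 125 and 111 against 184, 191 and 198 CPM, a log2 fold change of -0.69 (SE 0.07, adjusted p = 0.000194). Nfkb1, a subunit, was at 120.0 and 115 against 168, 171 and 171 CPM, a log2 fold change of -0.53 (SE 0.05, adjusted p = 0.000194). The inhibitors of the pathway thus moved in both directions. Cd40, a receptor of the tumour necrosis factor family and 1 of the 15 largest rises, was at 19.2 and 24.4 against 5.58, 4.93 and 5.99 CPM, a log2 fold change of 1.99 (SE 0.14, adjusted p = 8.99e-05).

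**Figure D3:**
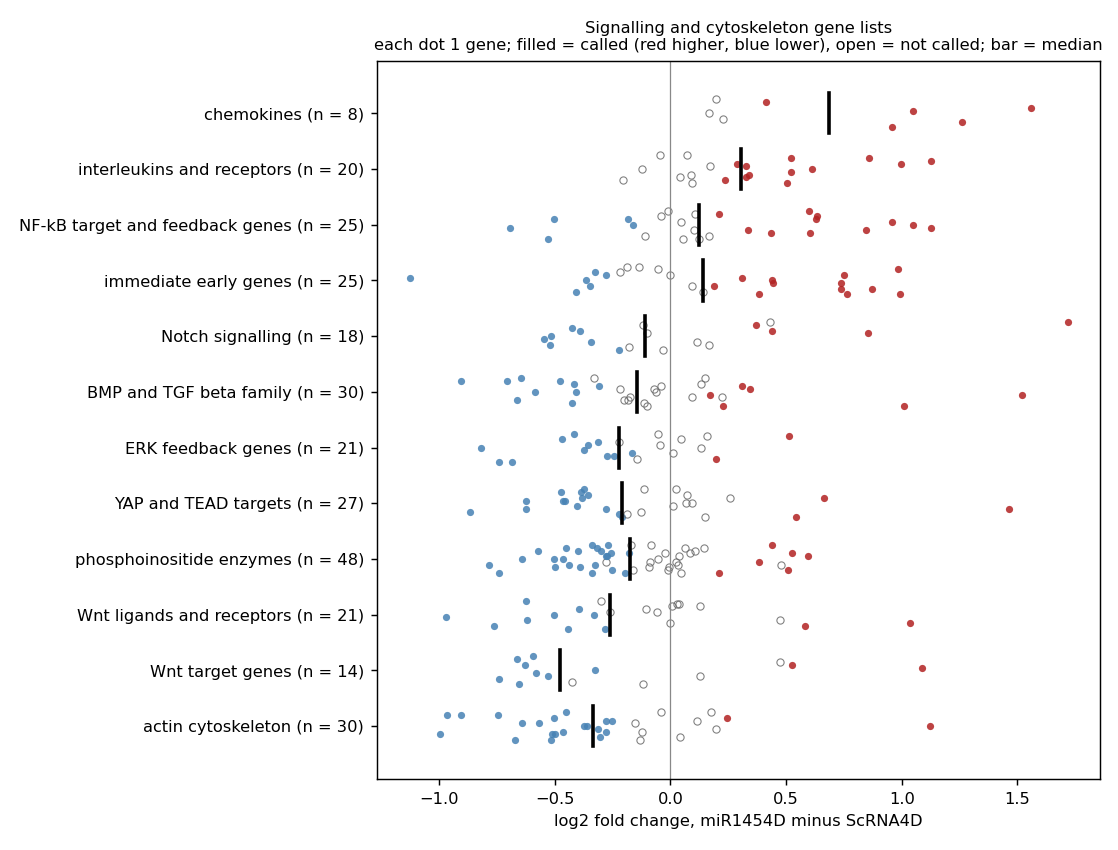
Log2 fold change of every tested gene in 12 signalling and cytoskeleton lists, miR1454D minus ScRNA4D, with called genes filled and the list median as a bar. The actin cytoskeleton list has 20 of 30 genes called lower, and the chemokine list 5 of 8 called higher.

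Stress and early response genes were mixed. Of 25 immediate early genes, which signals switch on within minutes, 12 rose and 6 fell. Their median log2 fold change of 0.14 was 0.02 relative to length. Atf3 was at 34.1 and 35.4 CPM in miR1454D and 18.05, 17.02 and 17.4 CPM in ScRNA4D, a log2 fold change of 0.99 (SE 0.07, adjusted p = 9.17e-05). Fosb was at 40.1 and 51.5 against 24.3, 22.7 and 22.4 CPM, a log2 fold change of 0.98 (SE 0.11, adjusted p = 0.000278), with smaller rises of Zfp36 (0.75) and Plk3 (0.63). Egr1 fell, at 28.2 and 29.1 against 66.5, 65.04 and 56.1 CPM, a log2 fold change of -1.13 (SE 0.09, adjusted p = 0.000102). Of 26 genes of the amino acid stress response driven by ATF4, 12 rose and 5 fell. Ddit3, which encodes CHOP, was at 17.8 and 24.1 against 8.17, 6.94 and 6.42 CPM, a log2 fold change of 1.54 (SE 0.16, adjusted p = 0.000238). Nupr1 was at 48.9 and 59.3 against 25.1, 20.4 and 21.3 CPM, a log2 fold change of 1.28 (SE 0.11, adjusted p = 0.000128), and the glutathione-degrading enzyme gene Chac1 (0.89) and the transcription factor gene Cebpb (0.63) rose as well.

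Genes of glycolysis and hypoxia were lower in 14 of 29 cases and higher in 3, with a median of -0.15. Hif1a, the oxygen-regulated factor, was at 94.5 and 78.3 CPM in miR1454D and 136, 150.4 and 144 CPM in ScRNA4D, a log2 fold change of -0.73 (SE 0.09, adjusted p = 0.000373). The glycolytic enzyme gene Tpi1 was at 283 and 277 against 457, 439 and 439 CPM, a log2 fold change of -0.67 (SE 0.06, adjusted p = 0.000117). Pgam1, also of glycolysis (-0.42), and Egln3, an oxygen sensor (-0.77), fell with them. Among 26 targets of p53, 9 rose (34.6%) and 5 fell (19.2%), against 28.7% and 28.0% of all genes. Their median log2 fold change of 0.10 was 0.02 without miR1454D_2. The DNA repair gene Ddb2 was at 22.5 and 28.8 against 12.7, 11.5 and 11.5 CPM, a log2 fold change of 1.11 (SE 0.12, adjusted p = 0.000285), while Xpc, its partner in damage recognition, fell (-0.61). The death gene Bax (0.44) and the stress gene Sesn2 (0.70) rose.

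The genes held as reported targets of the 3p strand of mir-145 were 7, all tested. Of these 3 were lower in miR1454D and none higher, and most take part in cell division. Bub1, a mitotic checkpoint kinase, was at 60.1 and 54.99 CPM in miR1454D and 77.4, 89.7 and 89.5 CPM in ScRNA4D, a log2 fold change of -0.57 (SE 0.08, adjusted p = 0.000881). Uhrf1, which maintains DNA methylation, was at 208 and 210.2 against 259, 258 and 257 CPM, a log2 fold change of -0.30 (SE 0.05, adjusted p = 0.00176). The kinase gene Melk was at 65.7 and 61.1 against 78.9, 74.9 and 75.5 CPM, a log2 fold change of -0.27 (SE 0.06, adjusted p = 0.00687). In all 3 genes the groups were apart. The list's median of -0.16 was -0.08 without miR1454D_2 and -0.02 relative to length. The 4 genes not called were Lmnb2 (0.05), Ncapg (0.05), Mtdh (-0.16) and Cdk1 (0.07), of which Mtdh was called lower without miR1454D_1.

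The titles and treatment entries name the 3p strand, and the column names give no strand. Of 35 genes reported for the 5p strand, 16 fell and 4 rose, a median of -0.16 that was -0.11 relative to length. The falls include Cttn, Tgfbr2 and Myc and the rises Jag1 and Egfr, all given above. Falls made up 42.9% of the 3p list, which is 3 of 7 genes, and 45.7% of the 5p list, beside 28.0% of all genes. Of the mitosis genes, a group left aside here, 55.3% were called lower. By the column names the falls of both lists were in the cells given the microRNA, and by the titles in the cells given the scrambled control. The mature sequences were not used here, so no match of seed to transcript was made.

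The machinery of microRNA processing and silencing had 13 of 28 genes lower and 5 higher, a median of -0.18 that was -0.04 relative to length. Among processing factors, the nuclear ribonuclease gene Drosha was at 109 and 112 CPM in miR1454D and 132, 138 and 132 CPM in ScRNA4D, a log2 fold change of -0.28 (SE 0.05, adjusted p = 0.0029). Dicer1, the cytoplasmic ribonuclease, was at 86.97 and 83.1 against 97.4, 103 and 98.3 CPM, a log2 fold change of -0.23 (SE 0.06, adjusted p = 0.00956). Xpo5, which exports precursors from the nucleus, fell by 0.31 on the log2 scale, the helicase Ddx5 by 0.32 and the Dicer partner Prkra by 0.48. Ago2, the Argonaute that can cut its target, was at 199.6 and 184 against 265, 267 and 255 CPM, a log2 fold change of -0.45 (SE 0.06, adjusted p = 0.000612). Ago1 was at 28.8 and 29.8 against 36.8, 41.4 and 41.7 CPM, a log2 fold change of -0.45 (SE 0.08, adjusted p = 0.00201). In these 4 genes the groups were apart but the changes were smaller than 1.5-fold. Among silencing partners, the log2 fold changes were -0.80 for Snd1, -0.59 for Cnot1, -0.58 for Mov10, -0.53 for Ddx6, -0.41 for Tnrc6b and -0.17 for Tnrc6c. The 5 rises were Pan2 and Pan3, which together form a deadenylase that shortens poly(A) tails, Tnrc6a, Ddx17 and Srrt, with log2 fold changes of 0.93, 0.69, 0.59, 0.30 and 0.17. Pan2 was at 52.9 and 65.8 against 30.2, 31.9 and 30.9 CPM, with no overlap. The calls of Tnrc6c and Srrt were near the threshold (adjusted p = 0.0414 and 0.0363) and were lost when any 1 library but miR1454D_1 was left out.

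**Figure D4:**
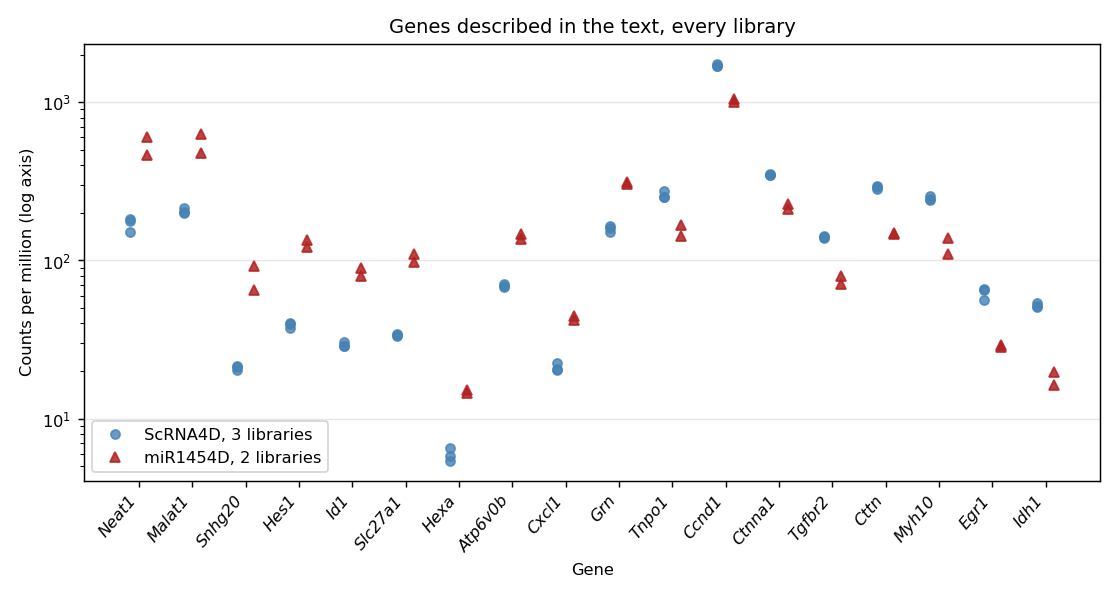
CPM of 18 genes described in the text in every library, on a log axis, with circles for the 3 ScRNA4D and triangles for the 2 miR1454D libraries. In each gene the groups are apart, as for Hes1 with 122 and 135 against 39.7, 37.6 and 40.3 CPM.

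The 15 largest rises among well measured genes named no single pathway. Ulk4, a member of the ULK kinase family, was at 50.7 and 111 CPM in miR1454D and 13.8, 12.9 and 10.6 CPM in ScRNA4D, a log2 fold change of 2.69 (SE 0.29, adjusted p = 0.000258). Ankmy1, an ankyrin repeat protein gene, was at 15.9 and 32.3 against 2.79, 2.90 and 3.53 CPM, a log2 fold change of 2.97 (SE 0.29, adjusted p = 0.000182). The antisense RNA Rab26os was at 15.5 and 31.9 against 2.44, 4.05 and 2.31 CPM, a log2 fold change of 2.99 (SE 0.33, adjusted p = 0.000299). In these 3 genes miR1454D_2 was about 2-fold above miR1454D_1, so the size of the rise is uncertain. Their groups were apart by the rule that chose them. Anxa8, an annexin gene, rose evenly, at 34.7 and 34.5 against 9.33, 9.16 and 8.53 CPM, a log2 fold change of 1.94 (SE 0.08, adjusted p = 2.17e-05). Further rises on the log2 scale were Adamtsl5, a matrix protein gene (2.05), Tnni2, a troponin of fast muscle (1.98), Ucn2, the stress peptide urocortin 2 (1.77), and Erdr1x (1.82), which lies in a repeated region and is uncertain. Commd1b is a copy of Commd1, and its rise of 2.38 is uncertain because the copies can share reads (Commd1 was not called, at 0.07).

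The 15 largest falls held several metabolic genes. Scd1 and Scd2 are desaturases of fatty acid synthesis that share regulation with the sterol genes left aside here. Scd1 was at 18.1 and 15.5 CPM in miR1454D and 51.4, 59.8 and 55.9 CPM in ScRNA4D, a log2 fold change of -1.72 (SE 0.10, adjusted p = 4.94e-05). Scd2 was at 381 and 330.0 against 923, 1077 and 1028 CPM, a log2 fold change of -1.51 (SE 0.09, adjusted p = 6e-05). Idh1, the cytosolic isocitrate dehydrogenase, was at 19.8 and 16.2 against 51.2, 53.5 and 51.5 CPM, a log2 fold change of -1.53 (SE 0.09, adjusted p = 5.51e-05). All 3 were more than 2-fold lower in both miR1454D libraries. Lrch4, a leucine-rich repeat protein gene, was at 9.18 and 10.5 against 35.05, 32.2 and 33.4 CPM, a log2 fold change of -1.77 (SE 0.09, adjusted p = 3.69e-05). Mbnl3, a splicing factor (-1.23), and Nkain1, which interacts with the sodium pump (-1.31), fell in both miR1454D libraries. Adnp, a homeobox factor, fell further in miR1454D_2, at 25.98 and 10.8 against 47.1, 46.5 and 47.99 CPM, a log2 fold change of -1.34 (SE 0.28, adjusted p = 0.00434). B3gnt2, a glycosyltransferase, did so too, at 40.4 and 17.7 against 67.9, 73.7 and 69.1 CPM, a log2 fold change of -1.26 (SE 0.27, adjusted p = 0.005). Rn7s1, a 7SL RNA gene that a poly(A) library measures poorly, fell by 1.25 on the log2 scale. Some values are uncertain because neighbouring genes share sequence. Chtf8 fell (-2.09) while Derpc, which lies in the same locus, rose (1.74), and Pcdhgc3 fell (-1.84) while Pcdhgc4 of the same protocadherin cluster rose (1.39). Reads can be assigned to either gene of such a pair.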

How the data were processed

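The 5 messenger RNA libraries of 4T1 cells were read from 1 table of estimated counts per gene, deposited by the authors under a name that gives salmon as the tool. The submitters' processing notes name Trimmomatic, STAR, featureCounts and DESeq2 and both GRCm38 and GRCm39, without saying which tables each belongs to; the build and annotation behind this table are not given in the sources used here. Per the labels, libraries were made with a stranded messenger RNA kit. Totals ran from 24972592 to 32637552 estimated counts per library.

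The estimated counts, 85.6% of them whole as deposited, were rounded. Genes with 3 CPM or more in at least 3 libraries were kept, a filter that a gene seen only in the 2 miR1454D libraries could not pass; the kept genes held 99.5% of the counts. CPM values of single genes use library sizes scaled by the TMM factors, and marker sums and the filter use plain totals. The kept genes were scaled with the TMM method and tested with edgeR 4.0.16 in R 4.3.3 (glmQLFit and glmQLFTest, no covariate), with Benjamini-Hochberg adjustment over all 10751 genes and a threshold of 0.05. The script was tested on simulated data first. Gene types, lengths and exon numbers came from GENCODE M21, matched by Ensembl identifier for 10655 genes (99.1%), and promoter windows from RefSeq. DESeq2 1.42.0, other scalings and filters, a replicate block and leaving out each library were alternatives.

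Genes were named by rule: the 15 called genes of largest rise and the 15 of largest fall that averaged at least 10 CPM, with a settled symbol and groups apart, up to 4 called members with the smallest adjusted p in each list described, every called member of the lists of reported 3p targets and of microRNA processing, and Irs1, Insr, Cdh1, Vim and Mki67. Mitf, Gla, Ctnnb1, Tnpo2, Csf1r, Rps2, Rbpj, Tdg, Commd1, Derpc and Pcdhgc4 were chosen after their values were seen, as were the 4 uncalled 3p targets. The genes and lists were chosen with earlier results of these data known, and the symbol patterns of the families were tidied after values were seen, to remove pseudogenes, antisense RNAs and partner proteins. The lists, the reported targets included, were written from general knowledge and from no source file. Some results that the rule would name are not reported here.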

Additional observations from a re-analysis of the deposited data

How the results depend on the processing

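With the replicate block, 3990 genes were called, 2119 of them higher and 1871 lower. Same-numbered libraries correlated at -0.17 and -0.18 in their deviations from the group means. With 2 miR1454D libraries those deviations mirror each other, so the values cannot show whether the replicate numbers pair the libraries. Leaving out 1 library at a time gave 4698 to 6888 called genes, 2396 to 3463 higher and 2302 to 3425 lower. With the block the calls of 16 of the 230 called genes chosen by the naming rule or added to it were lost: Slc6a6, Slc16a13, Uhrf1, Melk, Tnfrsf12a, Tnfrsf22, Ddx5, Drosha, Tnrc6c, Srrt, Dicer1, Ddx17, Mki67, Rps2, Tnpo2 and Csf1r. Of the 3 reported 3p targets called lower, 1 was called with it. The totals of called genes stayed within 1.5 times under the other alternatives run. Counts of list members moved more. With the block, 44 of these counts moved by more than 1.5 times or to 0, and 64 did not. With it 15 cytosolic ribosomal protein genes were called higher, and 11 phosphoinositide, 12 endocytosis and 5 G1 genes lower. The nuclear pore and importin list kept 24 called lower. The medians of 11 lists changed sign under at least 1 alternative. In 5 of them the median was larger than its spread between libraries: Rab GTPases 0.0094 with upper quartile scaling, mitochondrial carriers -0.0069 with a filter of 10 CPM, immediate early genes -0.03 with no filter on low counts, ion channels -0.0074 without miR1454D_1, the lowest of a range that reached 0.1498 when each library was left out, and the tumour necrosis factor family 0.0055 with upper quartile scaling, 0.014 with 3 CPM in 2 libraries, 0.0588 with a filter of 10 CPM and 0.5763 with no filter. In the other 6 the median lay within that spread: processed pseudogenes, SNARE proteins, metal carriers, amino acid transporters, mesenchymal genes and exosome release. With no filter, the median of the 10751 genes shifted to -0.11 and calls among them were higher in 35.0% of cases, against 50.6% with the filter and 57.2% with upper quartile scaling, where the median was 0.06. The cause of the sign changes was not tested. None of these 230 called genes changed direction under the alternatives run, while 8 of the 9 uncalled genes chosen likewise did under at least 1: Irs1, Insr, Cdh1, Vim, Commd1, Cdk1, Lmnb2 and Ncapg. Groups of 2 and 3 libraries, of which the miR1454D pair differed more (r = 0.987 against 0.996 to 0.997 in ScRNA4D), limit the precision of every value.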

Other observations

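Chromosome 17 stood apart from the other chromosomes in protein-coding genes. Of its 514 tested genes 225 (43.8%) were higher in miR1454D and 106 (20.6%) lower, with a median log2 fold change of 0.18, or 0.11 relative to the length decile, while the medians of the other chromosomes lay between -0.10 and 0.07. In 5 consecutive stretches of about equal gene number along it, the medians were 0.30, 0.19, 0.26, 0.15 and -0.05, so the first 4 stretches were shifted and the last was not. Zinc finger genes made up 18 of the 103 tested genes in the first stretch and 14 of the 102 in the third. The chromosome was singled out after its values were seen, and no test was made.

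Among called genes, 74.6% of those higher and 76.6% of those lower lay further from the ScRNA4D mean in miR1454D_2 than in miR1454D_1.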
